A study of Mus musculus with 20 samples.

Results

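Tumours of organoid line MTO68 were compared with tumours of organoid line MTO93, 2 lines of one genotype that differ as isolates. All 4 tumours of each line entered the comparison, 8 of the 20 tumours in the study, and membership came from the sample labels alone. Each line gave 2 tumours from control mice (Con) and 2 from treated mice (LY), and the treatment was a covariate. Genes that passed the test with the largest differences included the Wnt antagonists Wif1 and Apcdd1, the crypt gene Smoc2 and the homeobox gene Prox1, all higher in MTO68. Ido1, an enzyme that degrades tryptophan, the receptor subunit gene Gabrp and the claudins Cldn6 and Cldn2 were higher in MTO93.

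The labels give both lines as parental and as LAKTP. In the study that made these mouse tumour organoids, the letters stand for Lgr5-driven, tamoxifen-inducible Cre recombinase with conditional alleles that include Apc, Tgfbr2 and p53. That reading comes from knowledge of the study and not from the labels, and recombination was not checked in these data. By the genotype label, all 8 tumours carry the same alleles. Lgr5 marks stem cells at the crypt base. Each line is 1 organoid isolate. Both were first grown under the skin, and pieces of those tumours were then placed on the caecum of syngeneic C57BL/6J mice. Treated mice received 10 mg of galunisertib, which blocks the kinase of the TGF-beta type I receptor, by gavage 2 times per day from day 11 until sacrifice in week 5. LY was read as galunisertib, and the age and sex of the mice are not stated in the labels. RNA came from whole tumour fragments, so host stroma and immune cells were measured with the cancer cells, and fewer cells of a type cannot be told apart from less RNA per cell. The design text places the 2 control and 2 treated samples of a line on 1 array strip. An effect of the strip therefore cannot be told apart from one of the line. The labels call the samples biological replicates.

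Values are log2 levels made by robust multi-array averaging (RMA), 1 probe set per gene. Array medians of the 8 tumours lay between 4.93 and 5.10. The spread of values on an array differed more. Its SD was 1.76 and 1.47 on the MTO68 control arrays, 1.82 and 1.81 on the MTO68 treated arrays, and 1.52 to 1.60 on the 4 MTO93 arrays. The mean SD was 0.161 higher in MTO68 over all 8 arrays (exact permutation test, two-sided, p = 0.1429, 70 arrangements). Without the second control array of MTO68 the difference was 0.2435, with no test, since that array was singled out for its low spread. That second control array stood apart. Over all probe sets it correlated at 0.966 to 0.970 with the MTO93 arrays and at 0.892 to 0.929 with the other MTO68 arrays. The first principal component, with 71.8% of the variance, placed it at -0.28, beside MTO93 at -0.16 to -0.32 and away from the other MTO68 arrays at 0.31 to 0.57. The mean of 18 hybridization control probe sets was 10.7 on it, 10.5 to 10.7 on MTO93 arrays and 9.61 to 10.2 on the other MTO68 arrays. Among genes with large line differences, Prox1, Smoc2 and Slc30a2 were close to the other MTO68 arrays on it, while Apcdd1, Gzma and Hoxa10 lay between those arrays and MTO93. The differences that chose these genes include this array.

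**Figure D1:**
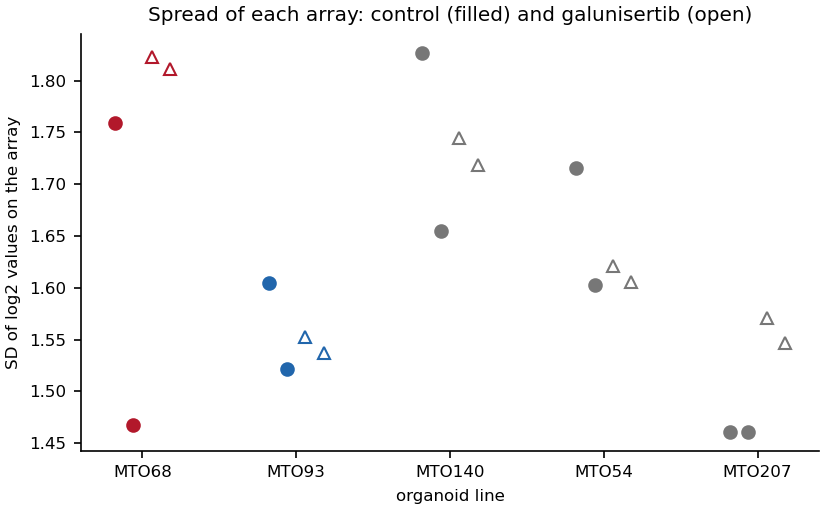
SD of all log2 values on each of the 20 arrays by organoid line, with control tumours as filled circles and galunisertib tumours as open triangles. The second MTO68 control array, at 1.47, sits below all 4 MTO93 arrays, and the other 3 MTO68 arrays lie above all of them.

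Of 14719 genes tested, 279 differed between the lines at a Benjamini-Hochberg adjusted p of at most 0.05 with limma, 1.90% of those tested. MTO68 was higher for 226 (1.54%) and MTO93 for 53 (0.360%), and 228 of the 279 differed by at least 1 on the log2 scale. The 4 tumours of each line did not overlap for 1879 genes, or 12.8%. The median difference of all tested genes was 0.05. It followed the level of a gene, from -0.16 for genes with a mean below 5 to 0.37 for genes above 8. With the array SD as a covariate these medians were 0.02 and -0.05.

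The number of calls rested on single arrays. Without the second MTO68 control array 9596 genes passed, 65.2% of those tested, with 36.7% higher in MTO68 and 28.5% higher in MTO93, and all 279 were among them with the same sign. Leaving out the first MTO68 control array kept 32 of the 279, and leaving out the first or the second MTO68 treated array kept 38 or 25. For MTO93 the omissions kept 240 and 39 (control) and 14 and 17 (treated). All 279 kept their sign in each alternative that tested them, other than 1 fit, not carried to single genes, in which line and array SD could not be separated. With the array SD as a covariate 490 genes passed (3.33%, with 1.73% higher in MTO68 and 1.60% higher in MTO93), among them 206 of the 279 in the same direction. After quantile normalization 905 passed (6.15%, with 3.95% and 2.19%), among them 269 of the 279. The calls shared by these 2 settings and the fit without the second control array numbered 200. A called gene outside the 14 named next lost its call when at least 1 array other than the second MTO68 control array was left out. Of the 51 called genes under the naming rule, 13 did not pass with the array SD as a covariate, with adjusted p-values of 0.0561 to 0.0938. They were Rnf43, Rsad2, Nptx1, Foxa3 and Cela1, higher in MTO68, and Cldn6, Ankrd1, Hbegf, Onecut2, Cadps2, Lrrc66, Prss22 and Scara3, higher in MTO93.

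Exactly 14 genes passed whichever array was left out. MTO68 was higher for 10 of them, Wif1, Ceacam10, Prox1, Slc30a2, Aldh1a7, Itln1, Ifi27l2a, Apobec3, Strc and D730005E14Rik. MTO93 was higher for 4, Ido1, Gabrp, Anxa8 and Psca. Ifi27l2a, Apobec3, Strc, D730005E14Rik, Anxa8 and Psca were named after their values were seen. Ifi27l2a, an interferon-induced gene, had a mean of 9.86 ± 0.26 (SD, n = 4) in MTO68 and 7.54 ± 0.17 in MTO93 (difference 2.32, SE 0.20, limma adjusted p = 0.00321). Anxa8, an annexin of stratified and injured epithelia, had means of 5.70 and 7.46 (difference -1.76, SE 0.18, adjusted p = 0.00687).

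**Figure D2:**
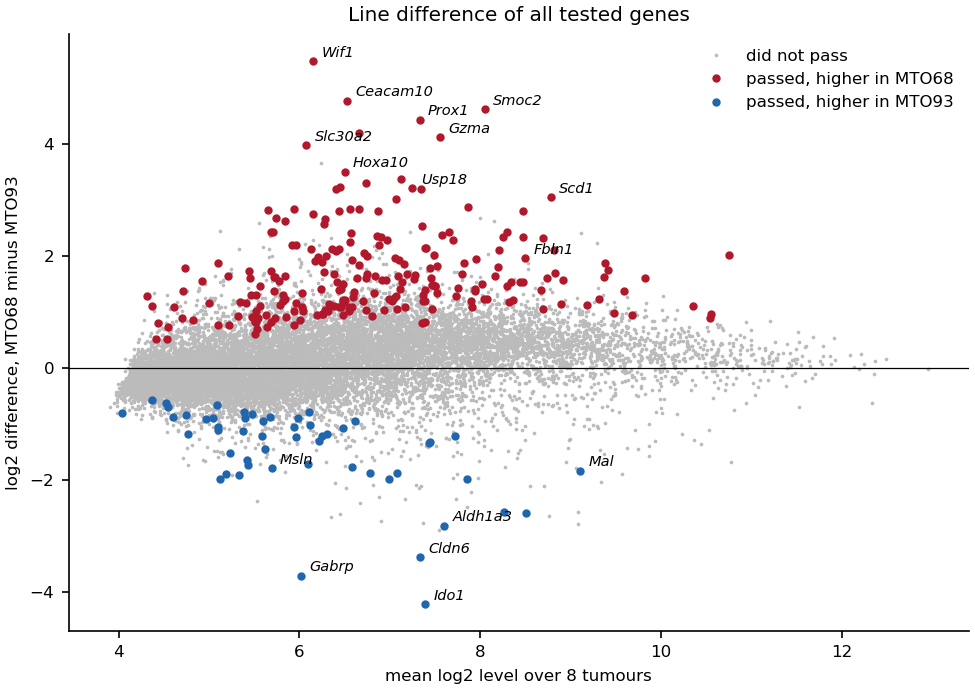
Each point is 1 of 14719 tested genes, with its mean log2 level over the 8 tumours on the x axis and its log2 difference, MTO68 minus MTO93, on the y axis. Red and blue points passed limma's test at an adjusted p of 0.05; the grey cloud tilts upward with level, from a median of -0.16 below level 5 to 0.37 above level 8.

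Wnt ligands stabilise beta-catenin by restraining a destruction complex that contains Apc, and loss of Apc leaves the pathway active. R-spondins amplify the signal through Lgr4 and Lgr5, and the ubiquitin ligases Rnf43 and Znrf3 oppose it by removing Frizzled receptors. Many targets of the pathway are its own inhibitors, among them Nkd1, Notum, Axin2 and, in several tissues, Wif1 and Apcdd1.

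Wif1, a secreted protein that binds Wnt ligands, was at 8.12 and 7.80 in MTO68 control tumours, 10.76 and 8.90 in MTO68 treated tumours, and 3.38 to 3.47 in all 4 MTO93 tumours. Every MTO68 tumour was thus far above every MTO93 tumour, and MTO93 lay below 4.16, the 25th percentile of all values that served as the filter level. The fitted difference was 5.49 (SE 0.47, limma adjusted p = 0.00321). Wif1 entered the test through its MTO68 values alone, which had to differ from MTO93, and against the filter level itself the MTO68 mean was higher by 4.73. The filter, at least 4 arrays above that level, was set on all 8 arrays before any was left out. Without an MTO68 array Wif1 thus stayed in the test with fewer than 4 arrays above the level. Of the 226 genes called higher in MTO68, 5 had every MTO93 array at or below it, beside 22 of all 14719 tested. Apcdd1, a membrane inhibitor of Wnt receptors, was at 8.57 and 5.86 in MTO68 controls, 10.75 and 9.84 in MTO68 treated tumours, and 4.46 to 4.70 in MTO93. The groups did not overlap, but the second control tumour was nearest to MTO93. Its difference was 4.20 (SE 0.75, adjusted p = 0.0379), and 2.48 with the array SD as a covariate.

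Nkd1, an intracellular feedback inhibitor that binds Dishevelled, was at 8.70 to 10.31 in MTO68 and 6.79 to 7.24 in MTO93 (difference 2.34, SE 0.32, adjusted p = 0.0193). Lgr4, the R-spondin receptor, was at 8.29 to 9.25 against 6.76 to 7.10 (difference 1.69, SE 0.24, adjusted p = 0.0209), although another probe set of Lgr4 differed by 0.06. These 4 were the members that passed among 16 tested on the Wnt target and feedback list. All 4 were higher in MTO68, a call that 1.54% of all genes had. A higher mean there was seen for 11 of the 16, beside 53.9% of all genes. The list's median difference was 0.59 beside 0.05 for all genes. It was 1.06 without the second MTO68 control array, where 8 of 16 members passed as higher in MTO68 beside 36.7% of all genes, and 0.06 with the array SD as a covariate. Notum, a secreted enzyme that inactivates Wnt ligands, differed by 1.27 (adjusted p = 0.0701) and Sox9, a crypt transcription factor, by 1.15 (adjusted p = 0.0663), both with groups that did not overlap. Ccnd1 and Cd44, other known targets, differed by -0.39 and -0.34 and did not pass.

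Smoc2, a secreted matrix-associated protein of crypt base cells, was at 9.96 and 9.77 in MTO68 controls and 10.92 and 10.80 in MTO68 treated tumours. In MTO93 it was at 7.18 and 6.20 in controls and 4.70 and 4.89 in treated tumours. The lines did not overlap, and the gap was wider among treated tumours. The main difference was 4.62 (SE 0.55, limma adjusted p = 0.0114), about 24.6-fold, and it passed in 5 of 8 omissions. Rnf43, the ubiquitin ligase, was at 6.47 to 8.28 in MTO68 and 4.81 to 6.07 in MTO93 (difference 2.13, SE 0.42, adjusted p = 0.0467). Its partner Znrf3 differed by 1.20 (adjusted p = 0.0664).

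Lgr5 was at 7.59 and 7.48 in MTO68 controls, 6.49 and 7.66 in MTO68 treated tumours, 7.18 and 6.11 in MTO93 controls and 5.06 and 5.61 in MTO93 treated tumours. The lines overlapped, and the difference of 1.31 did not pass (SE 0.35, adjusted p = 0.0669). Olfm4, another crypt gene, was at 6.98 in the second MTO68 control tumour and at 3.57 to 5.29 in the other 7. Smoc2 and Rnf43 were the 2 of 11 tested stem cell list members that passed. Both were higher in MTO68, a call that 1.54% of all genes had. Of the 11, 6 had a higher mean in MTO68, beside 53.9% of all genes. The list's median was 0.36, and 0.04 after quantile normalization or -0.24 with that and without the second MTO68 control array. Apc differed by 0.70 (adjusted p = 0.0996), and Tgfbr2 by -0.03 (adjusted p = 0.957). For Tgfbr2, 2 alternatives passed with opposite signs, -1.04 with the array SD as a covariate (adjusted p = 0.0354) and 0.54 with array weights (adjusted p = 0.0361). Whether their probe sets lie in the deleted parts is not known here, and host cells carry both genes, so these values do not check the genotype.

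Prox1, a homeobox factor of lymphatic and enteroendocrine cells that is induced in intestinal tumours with active beta-catenin, was at 9.24 and 9.19 in MTO68 controls and 9.93 and 9.83 in MTO68 treated tumours. In MTO93 it was at 5.94 and 5.45 in controls and 4.27 and 4.78 in treated tumours. The 4 MTO68 values lay close together, the second control array included, and far above MTO93. The difference was 4.44 (SE 0.37, limma adjusted p = 0.00321), and it passed in every omission and in control tumours alone. It was the single passing gene of 15 tested on the enteroendocrine and tuft list. There 13 members had a lower mean in MTO68, while 53.9% of all genes had a higher one. The list's median was -0.24, and -0.00 with the array SD as a covariate. Lyve1 and Reln, markers of lymphatic vessels, where Prox1 is also active, differed by -0.18 and -0.46 and did not pass.

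**Figure D3:**
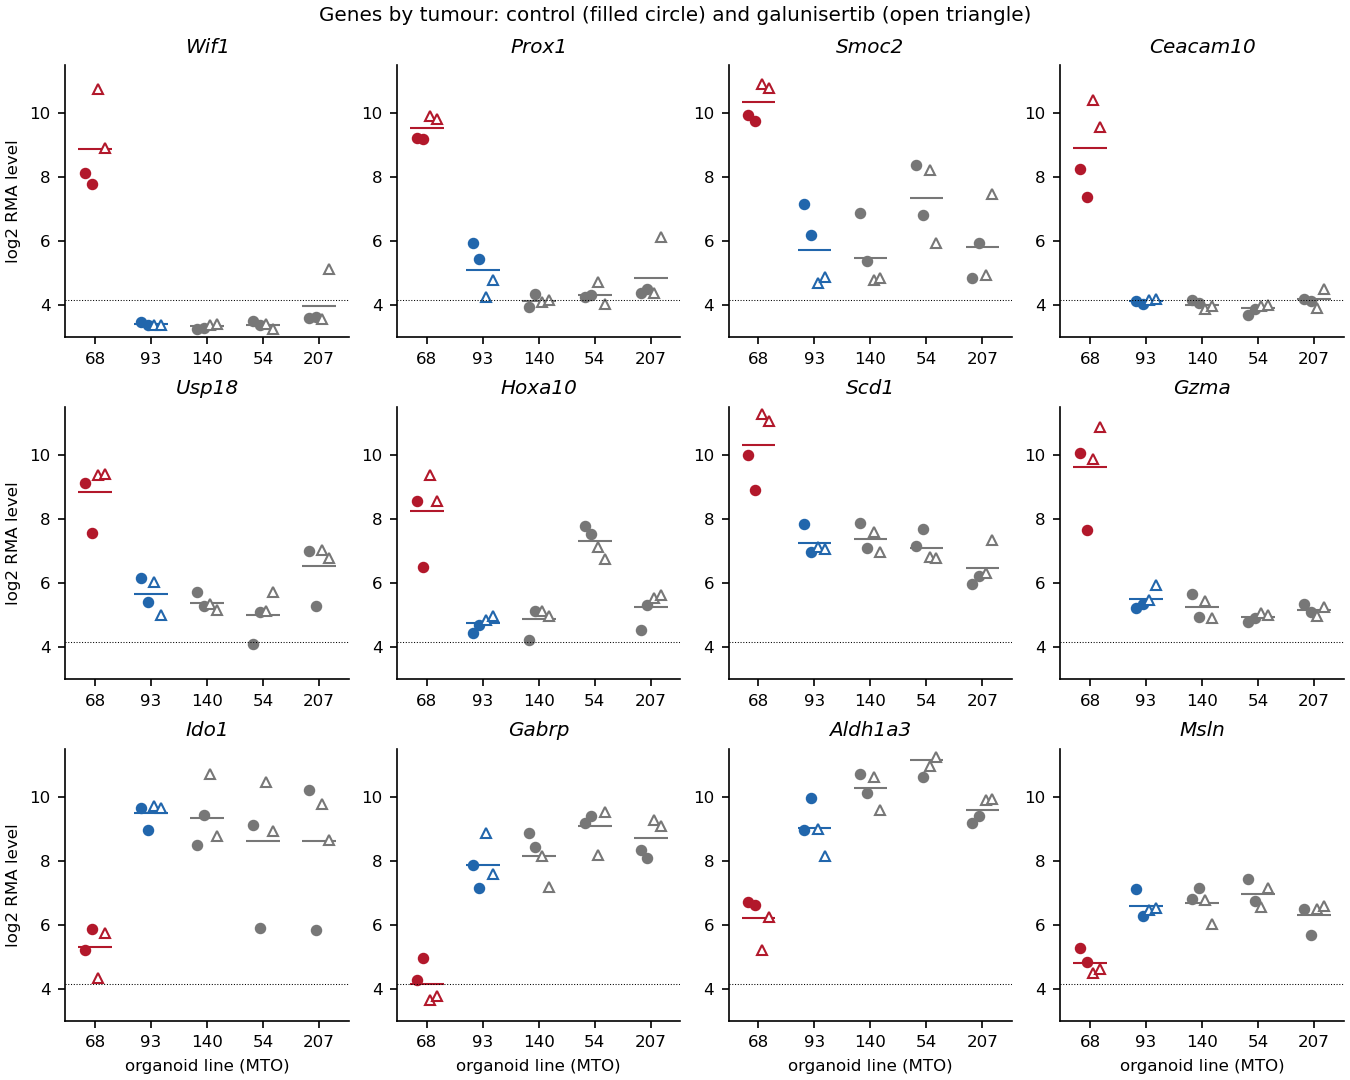
Log2 levels of 12 genes in the 20 tumours by organoid line (MTO68 red, MTO93 blue, other lines grey), with control tumours as filled circles, galunisertib tumours as open triangles, line means as bars and the 25th percentile of all values dotted. Wif1, Prox1, Ceacam10 and Gzma are high in MTO68 tumours and low in the other 4 lines, while Gabrp, Aldh1a3 and Msln are low in MTO68 and higher in the other 4.

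Several of the largest differences lay outside these lists. Ceacam10, a secreted member of the carcinoembryonic antigen family, was at 8.26, 7.39, 10.43 and 9.57 in MTO68 and 4.04 to 4.21 in MTO93 (difference 4.77, SE 0.43, limma adjusted p = 0.00321). Slc30a2, a zinc transporter of secretory vesicles, was at 7.18, 7.71, 9.08 and 8.29 in MTO68 and 3.92 to 4.30 in MTO93 (difference 3.98, SE 0.33, adjusted p = 0.00321). For both, MTO93 sat near the filter level of 4.16 and every MTO68 tumour was far above it. Aldh1a7, an aldehyde dehydrogenase, was at 6.47 to 7.88 against 4.02 to 4.43 (difference 2.83, SE 0.21, adjusted p = 0.00321). Itln1, an intestinal lectin, was at 6.23 to 6.60 against 4.94 to 5.13 (difference 1.38, SE 0.12, adjusted p = 0.00321). These 4 passed in every omission.

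Over the 20 arrays of the study, the genes whose levels were most like Wif1 were Slc30a2 (Pearson r 0.99), Ceacam10 (0.99) and Nkd1 (0.97). Ceacam10 was most like Tmed6, Wif1 and Fam118a (each 0.99), and Smoc2 most like Abcg1 (0.92), Cbfa2t2 and Chd6 (0.90 each). These correlations are descriptions over 20 arrays, 4 of which are high for all of the first set. Further genes with large differences that passed and did not overlap were Gp2, a zymogen granule and M cell glycoprotein (3.38), Nptx1, a neuronal pentraxin (3.31), Aldh1l1, a folate enzyme (3.24), Fetub, a fetuin (3.21), and Asprv1, a skin aspartic protease (3.20). Their limma adjusted p-values lay between 0.0204 and 0.0496. Another probe set differed by 0.06 for Aldh1l1 and by 0.70 for Nptx1. With the array SD as a covariate, Nptx1 fell short (1.81, adjusted p = 0.0582) and the other 4 differed by 2.11 to 2.22 and passed.

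Hox genes keep a record of position along the gut. Hoxa10 was at 8.57 and 6.51 in MTO68 controls, 9.38 and 8.56 in MTO68 treated tumours, and 4.45 to 4.98 in MTO93. Hoxa9, its neighbour in the cluster, was at 8.25 to 9.53 in MTO68 and 6.66 to 7.39 in MTO93. The groups were apart for both, with differences of 3.51 (SE 0.44, limma adjusted p = 0.0155) and 1.94 (SE 0.28, adjusted p = 0.0218). Hoxa11 differed by 1.12 (adjusted p = 0.0563) and Hoxb8 by 1.40 (adjusted p = 0.0747), while Hoxb7 differed by -0.83 (adjusted p = 0.106).

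Cdx2, the homeobox factor of intestinal identity, was at 6.46, 7.03, 6.14 and 7.10 in MTO68 and 7.40, 8.09, 8.09 and 8.07 in MTO93. All 4 MTO93 tumours were above all MTO68 tumours, yet the difference of -1.23 did not pass (SE 0.28, adjusted p = 0.0598). Of 14 position factors tested, Hoxa9 and Hoxa10 passed as higher in MTO68, beside 1.54% of all genes. A higher mean in MTO68 was seen for 7 and a lower one for 7, and the median was -0.04. Onecut2, a factor of the upper small intestine, was at 4.13 to 5.38 in MTO68 and 5.59 to 6.38 in MTO93 (difference -1.12, SE 0.19, adjusted p = 0.0339). It was the 1 of 13 small intestine genes that passed. A lower mean in MTO68 was seen for 12 of the 13, while 53.9% of all genes had a higher one. That list's median was -0.43, and -0.23 with the array SD as a covariate.

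Interferons act through a complex that includes Stat2 and Irf9 and binds the interferon-stimulated response element in promoters. Usp18, a protease that removes Isg15 and damps the receptor, was at 9.11, 7.55, 9.36 and 9.40 in MTO68 and 6.15, 5.40, 6.03 and 5.01 in MTO93. The lines were apart, with the second MTO68 control tumour lowest in its line. The difference was 3.21 (SE 0.44, limma adjusted p = 0.0194). Stat2 itself was at 8.99 to 9.46 against 7.34 to 8.09 (difference 1.54, SE 0.23, adjusted p = 0.0226), and its 4 MTO68 values included 9.04 on the second control array.

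Ifit2, an RNA-binding effector, was at 6.55 to 8.61 against 4.36 to 5.47 (difference 2.66, SE 0.40, adjusted p = 0.0226). Rsad2, the antiviral enzyme viperin, was at 8.42 to 9.70 against 7.29 to 8.09 (difference 1.53, SE 0.28, adjusted p = 0.0424). Irf7, which drives interferon genes, was at 7.0 to 8.23 against 6.10 to 6.70 (difference 1.41, adjusted p = 0.0496). These 5 of 16 tested interferon list members passed as higher in MTO68, beside 1.54% of all genes. Of the 16, 12 had a higher mean in MTO68, beside 53.9% of all genes. The median was 0.96, and 0.43 with the array SD as a covariate. Without the second MTO68 control array 11 of 16 members passed as higher in MTO68, beside 36.7% of all genes. The 4 members with a lower mean in MTO68 were Cxcl9 (-1.08, adjusted p = 0.0727), Cxcl10 (-0.59), Gbp2 (-0.54) and Irf1 (-0.19), and none of them passed.

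The promoters of Stat2 and Rsad2 are shown because each holds a match to the core of that response element, GAAA and GAAA with any 2 bases between them (TTTC and TTTC on the other strand), within 250 bases before to 50 bases after the gene's start. Capitals mark the match in these RefSeq sequences of GRCm38.p6, the first at chr10:128270248-128270547 on the plus strand and the second at chr12:26456403-26456702 on the minus strand.
Stat2: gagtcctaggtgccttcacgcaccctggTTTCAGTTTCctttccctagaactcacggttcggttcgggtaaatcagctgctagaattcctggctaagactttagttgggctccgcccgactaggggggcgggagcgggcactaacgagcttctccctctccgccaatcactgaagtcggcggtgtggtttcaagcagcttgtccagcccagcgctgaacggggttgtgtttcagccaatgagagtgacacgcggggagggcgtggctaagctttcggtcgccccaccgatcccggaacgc
Rsad2: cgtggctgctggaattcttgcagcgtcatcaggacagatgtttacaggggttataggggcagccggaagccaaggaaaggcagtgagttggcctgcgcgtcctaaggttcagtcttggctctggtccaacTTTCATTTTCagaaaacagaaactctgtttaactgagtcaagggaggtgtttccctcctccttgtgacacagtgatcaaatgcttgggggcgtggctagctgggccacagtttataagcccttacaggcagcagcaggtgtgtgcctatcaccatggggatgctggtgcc
Both strands were searched, and the match began at position -222 of Stat2 and -120 of Rsad2. Of 32851 promoter windows, 3.4% held such a match. It was present in 7 of 14 tested interferon list members with a window and in 2 of the 4 called members with one. For the TCF/LEF core CTTTGAT, 3.7% of windows held a match, as did 1 of 9 tested Wnt list members with a window and 0 of 3 called ones. A match is a run of letters and not a measured binding site.

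MHC class I presentation genes had higher means in MTO68 without a single call. Once the second MTO68 control array was left out 8 of 9 passed as higher in MTO68, beside 36.7% of all genes. All 9 tested members had a higher mean in MTO68, with a median of 0.69, and 53.9% of all tested genes had a higher mean there. The median was 0.25 after quantile normalization and 0.44 with the array SD as a covariate, where none passed. These are bright genes, and the median of all genes above level 8 was 0.37. Without the second MTO68 control array it was 0.58, beside 0.79 for the list. With quantile normalization as well, the list's median was 0.20. H2-T23, a non-classical class I molecule, was at 9.58 to 9.83 in MTO68 and 8.74 to 9.28 in MTO93 (difference 0.78, SE 0.19, limma adjusted p = 0.0625). Another probe set of H2-T23 differed by -0.02. Tapbp, which loads peptides, differed by 0.73 (adjusted p = 0.0658) and Nlrc5, the class I transactivator, by 1.08 (adjusted p = 0.0664). The median of the class II list was 0.26, and none of its 8 members passed.

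Lipid synthesis genes had the highest list median, 1.19. Scd1, which desaturates stearate, was at 10.00 and 8.91 in MTO68 controls and 11.28 and 11.05 in MTO68 treated tumours. In MTO93 it was at 6.96 to 7.83. The lines were apart by more than 1, and the difference was 3.06 (SE 0.45, limma adjusted p = 0.0219), or 2.11 with the array SD as a covariate (adjusted p = 0.0146). It was the only one of 11 tested members to pass, and all 11 had a higher mean in MTO68, beside 53.9% of all genes. Without the second MTO68 control array 9 of 11 passed, beside 36.7% of all genes called higher in MTO68. Fasn, the fatty acid synthase, differed by 1.36 (adjusted p = 0.0578) and Sqle, an enzyme of sterol synthesis, by 1.75 (adjusted p = 0.0724). The list's median was 0.49 in control tumours and 1.75 in treated tumours, and 0.55 over all 8 with the array SD as a covariate.

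Cdkn1c and Igf2, imprinted neighbours on chromosome 7, were also higher in MTO68. Cdkn1c, an inhibitor of cyclin-dependent kinases, was at 6.53 to 7.57 in MTO68 and 4.65 to 5.07 in MTO93 (difference 2.19, SE 0.23, limma adjusted p = 0.0069), and it passed in 7 of 8 omissions. Igf2, a growth factor, was at 7.80, 8.66, 5.97 and 7.61 against 5.28 to 5.43 (difference 2.13, SE 0.43, adjusted p = 0.049). Both were apart between the lines, and the second MTO68 control tumour was the highest for Igf2. Of 9 tested members of the imprinted and cancer-testis list, these 2 passed as higher in MTO68, beside 1.54% of all genes. A lower mean in MTO68 was seen for 6, and the median was -0.09. Meg3 and Dlk1, imprinted genes elsewhere, differed by -0.17 and 0.04.

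Genes higher in MTO93 were fewer and led by Ido1. Ido1 was at 5.20, 5.88, 4.35 and 5.74 in MTO68 and 9.66, 8.96, 9.72 and 9.64 in MTO93. No tumours overlapped, and the difference was -4.20 (SE 0.36, limma adjusted p = 0.00321), about 18.4-fold, passing in every omission. Gabrp, the pi subunit of GABA-A receptors, was at 4.27, 4.95, 3.64 and 3.79 against 7.86, 7.15, 8.86 and 7.59 (difference -3.70, SE 0.40, adjusted p = 0.00862), and it too passed in every omission.

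Junction and secretory genes followed. Cldn6, an embryonic claudin, was at 4.82, 4.97, 5.06 and 7.76 in MTO68 and 8.04 to 9.66 in MTO93. The second MTO68 treated tumour stood far above the other 3 of its line and just below MTO93. The difference was -3.37 (SE 0.66, adjusted p = 0.0471), and -3.83 with the array SD as a covariate, where it did not pass (adjusted p = 0.0644). Cldn2, a cation-pore claudin of leaky epithelia, was at 6.26 to 7.73 against 9.06 to 10.26 (difference -2.56, SE 0.35, adjusted p = 0.0194). Wfdc2, a secreted protease inhibitor, was at 6.20 to 7.84 against 9.33 to 10.12 (difference -2.59, SE 0.34, adjusted p = 0.0193). Aldh1a3, which makes retinoic acid, was at 5.21 to 6.72 against 8.15 to 9.95 (difference -2.81, SE 0.32, adjusted p = 0.0106), and it passed in 7 of 8 omissions.

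Msln, mesothelin, a surface protein of mesothelium and of several carcinomas, was at 5.27, 4.84, 4.49 and 4.62 in MTO68 and 7.11, 6.26, 6.45 and 6.51 in MTO93 (difference -1.78, SE 0.20, limma adjusted p = 0.00999). The other 5 tested members of the lymphatic and mesothelial list did not pass, and Wt1 and Lrrn4, mesothelial markers, were at 3.36 to 4.38 in all 8 tumours, about the level of the filter or below it. Etv4, an ETS factor induced by ERK signalling, was at 5.05 to 5.59 against 6.26 to 7.15 (difference -1.24, SE 0.17, adjusted p = 0.0193). It was 1 of 14 RAS-ERK output genes that passed. Dusp6 and Spry4, feedback inhibitors on that list, differed by -0.12 and -0.63 and did not pass.

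Hbegf, an EGF receptor ligand, and Ankrd1, a target of the coactivator Yap, were the 2 of 10 fetal-like and regenerative genes that passed, with differences of -1.33 (adjusted p = 0.0465) and -1.73 (adjusted p = 0.0461). Both were higher in MTO93, a call that 0.360% of all genes had. With the array SD as a covariate neither passed (adjusted p = 0.0759 and 0.0561). Clu, a marker of regenerating crypts, was at 8.93 to 11.03 in MTO68 and 11.13 to 11.82 in MTO93 (difference -1.67, adjusted p = 0.0606). The list's median was -0.34, and 0.17 without the second MTO68 control array. Among further genes higher in MTO93 were Trip6, a LIM-domain adaptor (-1.99), Prss22, a serine protease (-1.98), Scara3, a scavenger receptor family member (-1.98), Adgrl3, an adhesion receptor (-1.91), Cadps2, a vesicle exocytosis factor (-1.87), and Mal, an apical transport protein (-1.83). Lrrc66 (-1.86) and Zfp981 (-1.88) completed the 15 named. Limma adjusted p-values of these 8 lay between 0.0287 and 0.0496. Another probe set of Adgrl3 differed by -0.27.

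**Figure D4:**
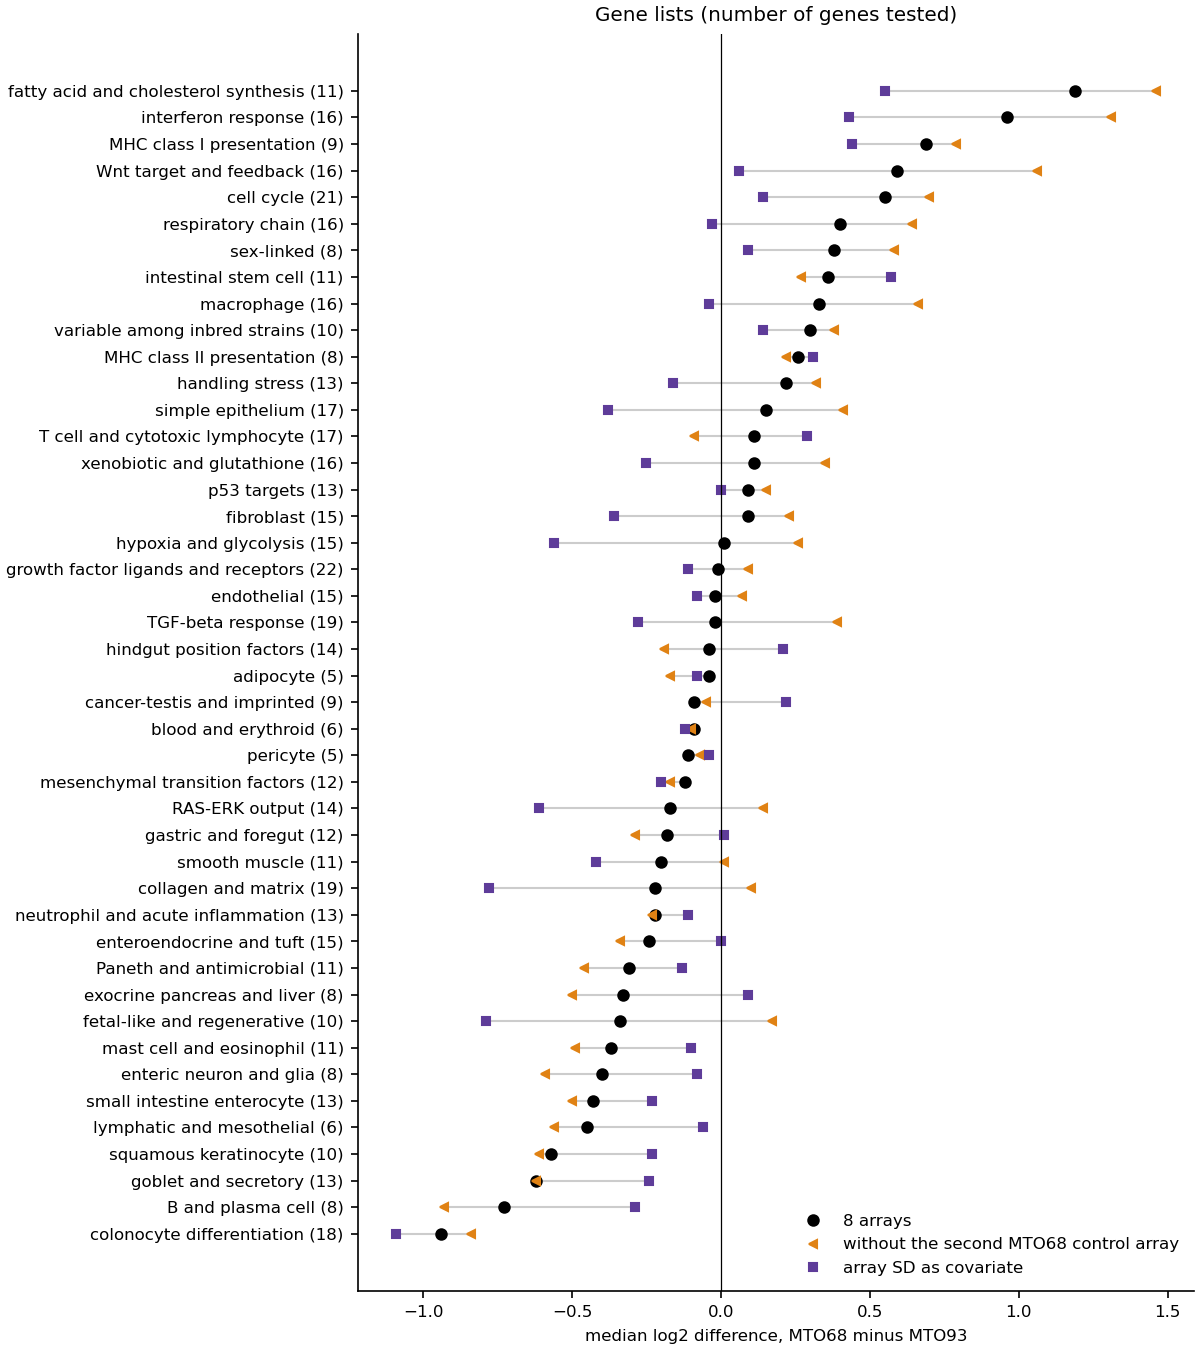
Median log2 difference, MTO68 minus MTO93, of each of 44 gene lists, with the number of genes tested in brackets, over 8 arrays (black), without the second MTO68 control array (orange) and with the array SD as a covariate (purple). Lipid synthesis, interferon response and MHC class I lie to the right of 0 and colonocyte genes and B cell genes to the left under all 3, while several lists cross 0.

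The sign of a list's median was often not stable. For 24 of the 44 lists it turned in at least 1 of the alternatives run. Counts of passing list members stand beside 1.54% of all tested genes called higher in MTO68 and 0.360% called higher in MTO93.

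General epithelial markers gave no call. Epcam was at 10.51 to 11.14 in MTO68 and 10.72 to 10.92 in MTO93 (difference 0.04, SE 0.16, limma adjusted p = 0.852), and Krt8 differed by 0.14. None of the 17 tested passed, and their median was 0.15, or -0.38 with the array SD as a covariate. Colonocyte differentiation genes had the lowest list median, -0.94, with 16 of 18 lower in MTO68 and none passing. The spread within MTO68 was wide. Slc26a3, the chloride exchanger of colonocytes, was at 9.46 and 5.73 in MTO68 controls, 6.89 and 8.37 in MTO68 treated tumours, and 7.66 to 9.85 in MTO93 (difference -1.60, adjusted p = 0.185). Car1 and Krt20 differed by -1.29 and -1.06 with overlapping groups.

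Foxa3, a goblet cell factor, was at 8.87 to 9.32 against 6.56 to 8.16 (difference 1.81, SE 0.32, adjusted p = 0.0379) and was the 1 of 13 goblet and secretory genes that passed. With the array SD as a covariate it did not pass (1.43, adjusted p = 0.0728). That list's median was -0.62, and -0.24 with that covariate or -0.90 to -0.27 when 1 array was left out. Aurka, a mitotic kinase, was the 1 of 21 cell cycle genes that passed (1.09, SE 0.20, adjusted p = 0.0379). Of the 21, 18 had a higher mean in MTO68, beside 53.9% of all genes. The median was 0.55, or 0.14 with the array SD as a covariate. Mki67 differed by 0.10. Ndufa4, a subunit of the respiratory chain, passed alone among 16 (1.88, SE 0.27, adjusted p = 0.0209), and that list's median moved from 0.40 to -0.03 with the covariate.

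Host cell markers gave few calls. Gzma, granzyme A of cytotoxic lymphocytes, was at 10.05, 7.66, 9.89 and 10.86 in MTO68 and 5.23 to 5.93 in MTO93 (difference 4.12, SE 0.51, limma adjusted p = 0.0149). The lines were far apart, and the other 3 lines of the study had means of 4.94 to 5.24. No other member of the 17 tested T cell and cytotoxic genes passed, and the mean level of the other 16 was 5.42 to 5.82 in MTO68 tumours and 5.40 to 5.53 in MTO93 tumours. Cd3e differed by 0.11, Prf1 by 0.31, Nkg7 by 0.34 and Gzmb by -0.11, with overlapping groups for each, and Ncr1 and Klrd1, natural killer markers, were at 3.55 to 4.21. Their part in the Gzma difference was not tested.

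Fbln1, a matrix protein of fibroblasts, was at 8.78 to 9.90 against 7.01 to 7.98 (difference 1.97, SE 0.27, adjusted p = 0.0201) and was the 1 of 15 fibroblast genes that passed; another of its probe sets differed by -0.43. Ltbp1, which binds latent TGF-beta, passed alone among 19 TGF-beta response genes (2.15, SE 0.39, adjusted p = 0.0413), with another probe set at -0.45. No gene passed among 19 collagens and matrix genes (median -0.22), 15 endothelial (-0.02), 11 smooth muscle (-0.20), 16 macrophage (0.33), 13 neutrophil (-0.22) or 8 B and plasma cell genes (-0.73, all 8 lower in MTO68). Without the second MTO68 control array the medians were 0.10 for matrix, 0.07 for endothelial and 0.01 for smooth muscle genes. With the array SD as a covariate that of macrophage genes was -0.04 and that of B and plasma cell genes -0.29. Col1a1 differed by -0.26 (adjusted p = 0.546). Cdh5, a junction protein of endothelium, was at 9.85, 6.07, 10.96 and 10.46 in MTO68 and 5.73 to 7.76 in MTO93. The second MTO68 control tumour fell among MTO93 values, and the difference of 2.68 did not pass (adjusted p = 0.108). Cela1, a pancreatic elastase, was the 1 of 8 exocrine pancreas and liver genes that passed (1.41, adjusted p = 0.0465). Fbln1 and Cela1 both lie on chromosome 15 and are among its called genes, described below.

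Xist was at 4.34 to 5.12 in all 8 tumours. Eif2s3y, on the Y chromosome, was at 6.73 to 8.35 in MTO68 and 5.73 to 7.23 in MTO93, and no sex-linked list gene passed. The difference of Eif2s3y was 1.08, and another of its probe sets differed by -0.06. Ddx3y is not analysed here.

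Chromosome 15 had the highest share of called genes of the chromosomes compared. Of 621 tested genes on it, 31 were called higher in MTO68 and 1, Psca, higher in MTO93, or 5.15% beside 1.90% of all genes. The next highest shares were 2.87% on chromosome 2 and 2.78% on chromosome 19. Among genes with a mean level of at least 6, the median difference was 0.605 on chromosome 15 (322 genes) and 0.172 to 0.448 on the other autosomes and X. With the array SD as a covariate it was 0.258, and 0.173 on chromosome 2, the next highest. Cut into 6 blocks of genes in order along the chromosome, the medians were 0.52, 0.58, 0.60, 0.65, 0.69 and 0.61. With the array SD as a covariate they were 0.12, 0.14, 0.29, 0.29, 0.37 and 0.31, the first 2 below that of chromosome 2.

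Relative to all genes of a tumour, the chromosome 15 genes were at 0.12, 0.18, 0.24 and 0.18 in the 4 MTO68 tumours. In MTO93 they were at -0.07, 0.00, -0.12 and -0.09, and the highest of the other 16 tumours was at 0.08. Other lines had such shifts on other chromosomes. All 4 MTO207 tumours were at 0.13 to 0.18 on chromosome 6, and all 4 MTO54 tumours at -0.24 to -0.17 on chromosome 9. The second MTO68 control tumour was at 0.22 on chromosome 2 and -0.17 on chromosome 3. The other MTO68 tumours were at -0.05 to 0.09 and -0.04 to 0.02 on them. On chromosome 15, at 0.18, that control tumour lay among the values of its line. Called genes there included Apobec3, a cytidine deaminase against retroviruses, at 10.15 to 10.41 in MTO68 and 8.42 to 8.74 in MTO93 (1.75, SE 0.17, limma adjusted p = 0.00485), and Laptm4b, a lysosomal membrane protein, at 10.76 to 11.28 against 9.75 to 9.86 (1.10, SE 0.17, adjusted p = 0.0239). Tmprss6, a membrane protease of iron control, differed by 2.57 and Tst, a mitochondrial sulfur transferase, by 2.28. These 4 were named after their values were seen. DNA copy number was not measured.

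**Figure D5:**
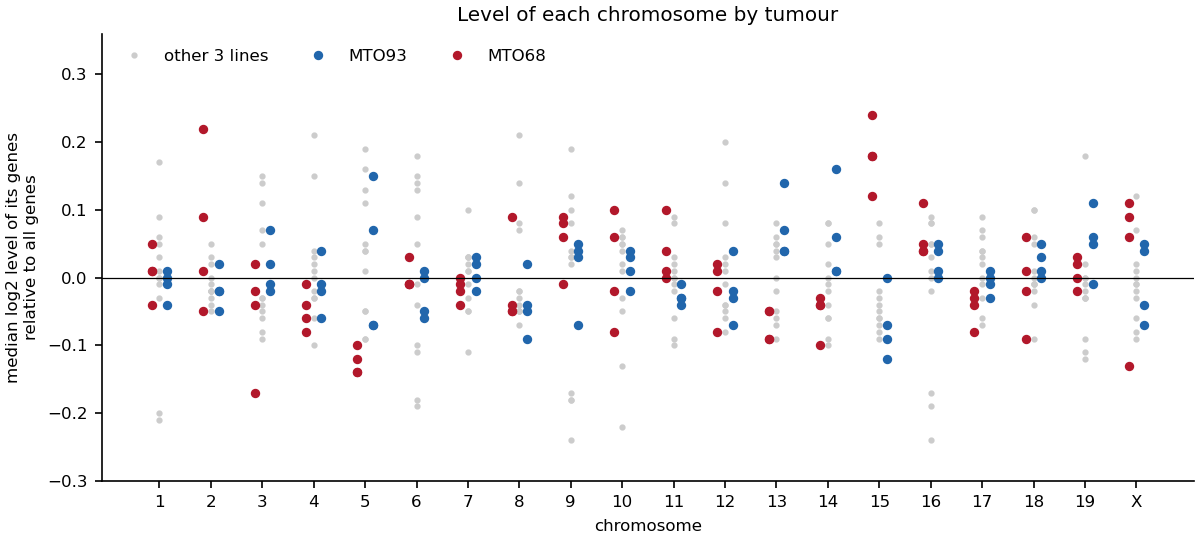
Median log2 level of the genes of each chromosome (mean level at least 6) relative to all genes of the same tumour, for MTO68 (red), MTO93 (blue) and the other 3 lines (grey). On chromosome 15 the 4 MTO68 tumours lie at 0.12 to 0.24 and the other 16 at or below 0.08. On chromosome 6 the 4 MTO207 tumours lie at 0.13 to 0.18.

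Control and treated tumours were also compared apart, with 2 tumours per line in each. Among control tumours 4 genes passed (0.0272%), Ceacam10 (3.74), Prox1 (3.52), Slc30a2 (3.23) and Aldh1a7 (2.50), all higher in MTO68, with limma adjusted p-values of 0.0302 to 0.0486. Of the 14719 genes, 672 had an unadjusted p under 0.05. Without the second MTO68 control array 2897 genes passed. Leaving out any MTO93 array gave 0. Among galunisertib tumours 3061 passed (20.8%), 1963 higher in MTO68 (13.3%) and 1098 higher in MTO93 (7.46%). That count moved widely when 1 array was left out, and by about as much without the first MTO68 control array as without the second. Every omission leaves 1 tumour in 1 of the 4 groups of this model. Counts from omissions, those of control tumours included, therefore do not show the part of a single array. The array that stands apart is a control, and the counts of the 2 treatments are not a test of their difference.

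The largest differences among treated tumours were Wif1 (6.44), Smoc2 (6.07), Apcdd1 (5.82) and Ceacam10 (5.81) in MTO68, and Ido1 (-4.63) and Gabrp (-4.51) in MTO93. Pfn2, an actin-binding profilin, differed by 5.41 among treated tumours. It was at 8.49 in the first and 4.68 in the second MTO68 control tumour, and its overall difference of 3.67 did not pass (adjusted p = 0.0628). Mcpt1, a mucosal mast cell protease, differed by -4.36 among treated tumours (adjusted p = 0.0281) with values of 3.75 and 6.47 against 10.15 and 8.79. Astx6 and Btbd35f21, on the X chromosome, differed by -4.09 and -3.87. Astx6 was at 10.51 in the second MTO68 control tumour, 5.76 to 7.81 in the other 3 and 9.96 to 10.76 in MTO93. The second MTO68 control array was with MTO93 for this gene. The SD of all values on that array, 1.47, lay below those of all 4 MTO93 arrays.

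The line difference itself was tested for a dependence on treatment, and no gene passed in limma's 4-group model, while 1201 had an unadjusted p under 0.05 and 6 genes passed in the 20-array model. Without the first MTO68 control array 6815 passed, but that fit leaves the array that stands apart as the only MTO68 control and assumes that it varies like the other groups. The smallest p-values were those of Idi1, an enzyme of isoprenoid synthesis (2.15), H4c9, a histone (1.79), Tbccd1 (1.44), Atp4a, the gastric proton pump (2.64), and Smoc2 (2.90), each with an adjusted p of 0.489. Idi1 was at 6.00 and 6.22 in MTO68 controls, 8.14 and 8.12 in MTO68 treated tumours and 6.31 to 6.54 in all MTO93 tumours. Treated MTO68 tumours were the high ones.

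The called genes were then set beside the other lines. Of the 226 genes called higher in MTO68, its mean lay outside the other 4 lines for 222, and MTO140, MTO54 and MTO207 were all nearer to MTO93 for 177 and to MTO68 for 0. Of the 53 called higher in MTO93, the counts were 48, 33 and 1. Over all 14719 tested genes they were 7444, 3058 and 627. The genes were chosen for their difference, so these are descriptions. Hoxa10 was an exception in part, at a mean of 7.30 in MTO54 beside 8.25 in MTO68 and 4.75 in MTO93. Cldn2 was at 6.67 in MTO207, close to 6.99 in MTO68. Lgr4 was at 8.07 in MTO140, beside 8.65 in MTO68 and 6.96 in MTO93.

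The same fit was run for each of the 10 pairs of lines, which share arrays, so the counts are given side by side. MTO68 against MTO140, a line of type LiM with the same LAKTP genotype, gave 543 genes (3.83%), and MTO93 against MTO140 gave 5977 (41.0%). Against MTO54, a parental LAKP line, MTO68 gave 388 (2.68%) and MTO93 gave 617 (4.21%). Against MTO207, a parental LAKT line, MTO68 gave 4876 (33.0%) and MTO93 gave 8 (0.0538%). Among the other 3 lines, MTO140 against MTO54 gave 1435 (9.97%), MTO140 against MTO207 gave 7054 (48.1%) and MTO54 against MTO207 gave 180 (1.22%). The array SD was 1.66 to 1.83 in MTO140, 1.60 to 1.72 in MTO54 and 1.46 to 1.57 in MTO207, and its part in these counts was not tested. The count of 279 between lines of equal genotype was thus neither the smallest nor the largest. Without the second MTO68 control array the 3 other MTO68 pairs gave 1634 (MTO140), 5501 (MTO54) and 9820 (MTO207).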

How the data were processed

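The deposited log2 values per probe set were made by the authors with affy and RMA, which the submitters' processing notes name, with versions not given in the sources used here. In RMA, background is corrected, probes are quantile normalized and probe values are combined, so a difference in spread between arrays that remains can shift dim and bright genes in opposite directions. The table held 45141 probe sets. The platform annotation gave 1 symbol for 28898, several for 551 and none for 15588, and 104 were controls. Symbols were updated through Entrez IDs for 28689.

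Each of 17097 genes was represented by its brightest probe set (mean over 20 arrays). A gene was tested if at least 4 of the 8 arrays exceeded 4.16, which is the 25th percentile of the values. Line and treatment were fitted with limma 3.58.1 (R 4.3.3, eBayes with a trend), two-sided, and p-values were adjusted by Benjamini-Hochberg across the tested genes, with a threshold of 0.05. Every adjusted p in the text is limma's. Control, treated and interaction contrasts came from a model with 4 group means. Replicates were numbered in accession order. The number of arrays limits the precision, and the spread is between tumours. Plots used matplotlib 3.10.9. The procedure was tested on simulated data. Their noise was independent between genes and arrays, with no array of unlike spread, so that test does not bear on the effect of array spread.

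Members, the 44 gene lists and the tests were chosen with earlier results of these data known. The lists held 667 genes, of which 590 had a probe set and 555 were tested. Named genes were up to 15 and 15 of largest difference that passed and did not overlap, up to 4 passing members of a list or else its 2 of smallest p, up to 5 and 5 of the other contrasts, and a set always given. Symbols such as Gm or Rik were passed over, and other list members given as examples were picked after their values were seen. Alternatives were other filters, probe set rules, scalings and models, and each array left out. Leaving out the second MTO68 control array together with quantile normalization or with the array SD as a covariate was added after seeing the data.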

Additional observations from a re-analysis of the deposited data

Results flagged for a closer look

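Among the named genes, 15 of 230 groups of 4 tumours had 1 tumour far from the other 3 by Dixon's ratio, a test that picks about 1 in 20 groups by chance. The second MTO68 control tumour was the far one in 7 of them. It was lower for Jun (7.87, the others 9.01 to 9.13), Mdm2 (7.23, the others 8.04 to 8.18), Pdk1 (6.96, the others 8.00 to 8.13), Tapbp (10.61, the others 11.10 to 11.17), Tgfbr2 (6.72, the others 8.31 to 8.50) and Usp18 (7.55, the others 9.11 to 9.40). It was higher for Xist (5.12, the others 4.34 to 4.43). In the first MTO68 treated tumour Hbegf was at 6.02 (the others 6.94 to 7.09) and Lgr5 at 6.49 (the others 7.48 to 7.66). Cldn6 was at 7.76 in the second MTO68 treated tumour (the others 4.82 to 5.06), and Ankrd1 at 5.07 in the first MTO68 control tumour (the others 4.36 to 4.45). Within MTO93, the first control tumour was at 7.40 for Cdx2 (the others 8.07 to 8.09) and at 8.81 for Tgfbr2 (the others 7.67 to 7.84). The second MTO93 control tumour was at 8.96 for Ido1 (the others 9.64 to 9.72), and the first treated tumour was at 6.59 for Adgrl3 (the others 6.17 to 6.22).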

How the results depend on the processing

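The main count of 279 genes became 177 with no filter, 135 after median centring, 905 after quantile normalization, 10801 with array weights, 4995 in the 20-array model, 1890 in the 4-group model and 490 with the array SD as a covariate. For differences of at least 1 on the log2 scale, 228 became 110 after median centring, 355 after quantile normalization, 2220 with array weights, 973 in the 20-array model and 814 in the 4-group model. Omitting 1 array gave 14 to 9596, and 14 to 2087 for the larger differences. Omitting the second MTO68 control array with quantile normalization gave 7229 and 1390. With the array SD as a covariate that omission gave 0 and 0 (680 at an unadjusted p under 0.05), because line and array SD then correlate at 0.971 over 7 arrays, so it was not carried to lists or genes.

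The 4 genes of control tumours became 9 with a stricter filter, 8 with the mean of probe sets, 2 after median centring, 8 after quantile normalization, 9 without trend, 0 with array weights, 39 in the 20-array model and 0 to 2897 in omissions. The 3061 of treated tumours became 1489 after quantile normalization, 9582 with array weights, 6501 in the 20-array model and 4 to 8818 in omissions. The interaction went from 0 to 6 in the 20-array model and to 0 to 6815 in omissions. In that 20-array model the pairs gave 2212 (MTO68 and MTO140), 2603 (MTO68 and MTO54), 109 (MTO93 and MTO54) and 4 (MTO93 and MTO207), and without the second MTO68 control array 1634, 5501 and 9820 for MTO68 with MTO140, MTO54 and MTO207. The difference in array SD of 0.1611 became 0.2435 without it.

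Lists with a passing member numbered 19, and 44 without that array, 30 after quantile normalization, 43 with both, and 3 to 44 in omissions. Of 44 list medians 24 turned sign in at least 1 alternative. Those of lists with a passing member that did so by more than the spread between tumours were T cell (-0.09, over omissions -0.09 to 0.15), TGF-beta response (0.39, -0.07 to 0.39) and fetal-like (0.17, -0.68 to 0.17) without that array, stem cell (-0.24) with quantile normalization as well, and hindgut position (0.21), respiratory chain (-0.03), fibroblast (-0.36), pancreas and liver (0.09) and imprinted (0.22) with the array SD as a covariate. Tgfbr2 became 0.54 with array weights (adjusted p = 0.0361) and -1.04 with the array SD as a covariate (adjusted p = 0.0354). The cause was not tested. No paired analysis was possible because the labels give the tumours no replicate numbers.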
